A study of Mus musculus with 12 samples.

Results

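The mitochondrial ribosomal protein genes are the nuclear genes that encode the proteins of the mitochondrial ribosome. They were taken by symbol: every protein-coding gene whose symbol begins with Mrpl (large subunit) or Mrps (small subunit) followed by a digit. The deposited table holds 28987 genes, of which 77 are members, 48 of the large and 29 of the small subunit by symbol. Mrpl33 was not analysed here, because its identifier could not be paired with a line of the table. Their transcripts were quantified by RNA sequencing of bone marrow cells from C57BL/6 mice, with 12 libraries in 6 groups of 2. The HSCPs, a fraction of haematopoietic stem cells and progenitors enriched by CD117 selection, were wild type, mutant for CBL, mutant for RUNX1, or mutant for both (CBL/RUNX1 mutant). The Ly6G+ cells, which carry a surface protein of the neutrophil lineage, were wild type or CBL/RUNX1 mutant. Each marrow came from a single animal, and the mutant cells were isolated by flow sorting. The ubiquitin ligase CBL limits the activity of receptor tyrosine kinases, and RUNX1 regulates transcription during haematopoiesis. The labels name no allele and no way of making the mutants, and give no age.

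The mitochondrial ribosome translates the few proteins encoded by mitochondrial DNA, which are subunits of the respiratory chain and of the ATP synthase. Its ribosomal RNAs are made inside the organelle, whereas its proteins are made in the cytosol and imported, so the nuclear genes have to supply both subunits. The small subunit decodes the messenger RNA and the large subunit forms the peptide bond. Promoters of nuclear genes for mitochondrial proteins are known for binding NRF1, the ETS family factor GABP and YY1.

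Promoter sequence was used to see what the members share beyond their names. RefSeq promoters of the build GRCm38.p6, read over the 250 bases before the annotated start, matched 68 of the 77 members with 74 promoters. The members not matched were Mrpl4, Mrpl13, Mrpl15, Mrpl19, Mrpl38, Mrpl54, Mrps28, Mrps34 and Mrps35. Each motif was searched on both strands and counted whether or not it overlapped another. The ETS letters CCGGAAG were present in 18 of the 74 member promoters (24.3%) and in 6.91% of all 32851 promoters of the table. For the NRF1 letters GCGCA and GCGC with any 1 base between them the shares were 13.5% of member promoters and 3.74% of all. The YY1 letters AAGATGGC were found in 5.41% against 1.56%, the E-box CACGTG in 9.46% against 6.02%, and the CCAAT box in 36.5% against 33.8%. A gene with several promoters is counted once for each, so the E-box and CCAAT shares include overlapping promoters of Mrpl2 separately. By subunit, the ETS letters stood in 25.5% of large and 22.2% of small subunit promoters, and the NRF1 letters in 19.1% of large and 3.7% of small subunit promoters. These shares describe the letters in this window and were not tested. The set of all promoters was not matched to the members for expression in these cells.

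The promoters below are shown because they belong to members described with their values further on and because between them they carry all 5 motifs. Capitals mark the motif letters, on either strand, and every sequence runs 5′ to 3′ on the strand of its gene. The Mrps26 promoter has the ETS letters 14 bases before the start, the Mrpl12 promoter has an NRF1 match, Mrpl2 and Mrpl37 have an E-box each with a pair of CCAAT boxes, and Mrps12 has the YY1 letters with 4 CCAAT boxes.
Mrps26, chr2:130563507-130563756, plus strand: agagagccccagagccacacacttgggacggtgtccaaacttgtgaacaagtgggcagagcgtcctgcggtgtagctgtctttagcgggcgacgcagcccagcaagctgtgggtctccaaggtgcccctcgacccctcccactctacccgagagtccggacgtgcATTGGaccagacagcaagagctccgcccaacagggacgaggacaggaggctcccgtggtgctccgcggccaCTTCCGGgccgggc
Mrpl12, chr11:120484387-120484636, plus strand: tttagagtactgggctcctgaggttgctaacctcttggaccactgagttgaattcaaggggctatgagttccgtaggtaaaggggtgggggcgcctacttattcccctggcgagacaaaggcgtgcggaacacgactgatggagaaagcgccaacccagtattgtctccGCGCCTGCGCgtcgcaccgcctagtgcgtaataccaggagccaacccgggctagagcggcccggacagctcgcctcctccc
Mrpl2, chr17:46645971-46646220, plus strand: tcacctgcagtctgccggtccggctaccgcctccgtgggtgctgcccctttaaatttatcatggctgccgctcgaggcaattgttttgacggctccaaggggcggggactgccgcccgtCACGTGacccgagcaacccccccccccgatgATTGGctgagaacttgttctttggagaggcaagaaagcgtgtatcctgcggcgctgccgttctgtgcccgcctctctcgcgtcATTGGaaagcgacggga
Mrpl37, chr4:107066867-107067116, minus strand: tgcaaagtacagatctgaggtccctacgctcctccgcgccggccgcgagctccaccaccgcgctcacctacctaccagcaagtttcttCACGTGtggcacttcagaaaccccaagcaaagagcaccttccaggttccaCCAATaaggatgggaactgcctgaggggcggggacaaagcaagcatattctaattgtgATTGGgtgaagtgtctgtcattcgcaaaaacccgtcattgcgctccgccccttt
Mrps12, chr7:28741822-28742071, minus strand: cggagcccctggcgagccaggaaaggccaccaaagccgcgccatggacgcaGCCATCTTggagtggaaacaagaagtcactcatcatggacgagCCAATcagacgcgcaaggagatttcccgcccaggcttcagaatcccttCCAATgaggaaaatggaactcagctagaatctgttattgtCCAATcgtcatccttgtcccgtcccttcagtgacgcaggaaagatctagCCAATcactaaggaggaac

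Some members also share a genomic arrangement, in which a protein-coding gene starts upstream on the opposite strand, within 500 bases and without overlapping the member. This arrangement, which leaves out pairs with overlapping starts such as Mrpl46 and Mrps11, held for 17 of the 77 members (22.1%). It held for 6.16% of 21951 protein-coding genes of the annotation, a background not matched to the members for expression in these cells. Mrps12 is paired in this way with Sars2, the mitochondrial seryl-tRNA synthetase, 172 bases away. Mrps18b is paired with Ppp1r10 (45 bases), Mrps34 with Eme2 and Mrps18c with Helq (29 bases each), Mrpl2 with Klc4 (207 bases) and Mrpl37 with Cyb5rl (120 bases). The members lie on 17 chromosomes, and no chromosome holds more than 11. An exon of 26 members overlaps an exon of another gene in the table, and the labels do not say whether the library kept strand, so reads of such pairs may not be separable.

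All values are TPM, the share of a library's transcripts that comes from a gene, corrected for length. They were divided by a trimmed-mean factor per library, which ran from 0.714 to 1.55, with library totals evened out, and are called scaled TPM. The deposited TPM of a library summed to between 933370 and 981994 and carry no read numbers, so depth and counting error are unknown. The targeted genes were not lower in the libraries labelled mutant, and without the allele their level does not check the labels. Cbl stood at 36.7 and 24.95 scaled TPM in wild type and at 71.8 and 78.5 in CBL mutant HSCPs, and Runx1 at 15.1 and 15.7 in wild type and at 125.5 and 47.7 in RUNX1 mutant HSCPs. The cell populations were checked against 12 neutrophil markers (such as S100a8, Ngp, Ltf and Ly6g) and 10 progenitor markers (such as Kit and Cd34), none of which was at 0 in any library. The neutrophil markers made up 33.9% to 36.4% of the deposited TPM in wild type HSCPs, 26.3% to 32.2% in CBL mutant HSCPs, 9.24% to 10.5% in CBL/RUNX1 mutant HSCPs and 42.3% to 42.7% in wild type Ly6G+ cells. The libraries labelled HSCPs thus held a large neutrophil signal, which was lower in the CBL/RUNX1 mutant ones. RUNX1 mutant HSCPs and CBL/RUNX1 mutant Ly6G+ cells each had libraries far apart, with a neutrophil share of 15.2% and 32.5% in the first group and 9.66% and 33.9% in the second, replicate 1 being the low one in both. Ly6g itself was at 260 scaled TPM in replicate 1 of the CBL/RUNX1 mutant Ly6G+ cells, below the 570 and 703 of wild type HSCPs. Summed progenitor markers were 1049 and 327 scaled TPM in these RUNX1 mutant replicates and 592.5 and 153 in these Ly6G+ replicates, against 228 and 239 in wild type HSCPs. In bulk samples, fewer cells of a type and less RNA per cell cannot be told apart. The part of cell composition in the results below was not tested, and neither was that of the flow sorting of the mutant cells.

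Every member was measured above the filter on low values in every fit. In wild type HSCPs the group means ran from 5.78 scaled TPM for Mrpl35 to 256 for Mrps21, with a median of 39.1. The 5 highest members were Mrps21 (256), Mrpl52 (193), Mrps18c (150), Mrps23 (123) and Mrps16 (116), 4 of them in the small subunit. The 5 lowest were Mrpl35 (5.78), Mrpl17 (7.87), Mrpl1 (8.31), Mrpl11 (9.05) and Mrps6 (10.2), 4 of them in the large subunit. Genes for proteins of the same particle thus differed by over an order of magnitude in transcript level. The order of the members was much the same in the other groups: Spearman's rho with the wild type HSCPs, across the 77 genes, was 0.986 for CBL, 0.985 for RUNX1 and 0.958 for CBL/RUNX1 mutant HSCPs. For Ly6G+ cells it was 0.914 (wild type) and 0.926 (CBL/RUNX1 mutant). These correlations are across genes, which share their length and sequence in every library, and are descriptions.

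**Figure D1:**
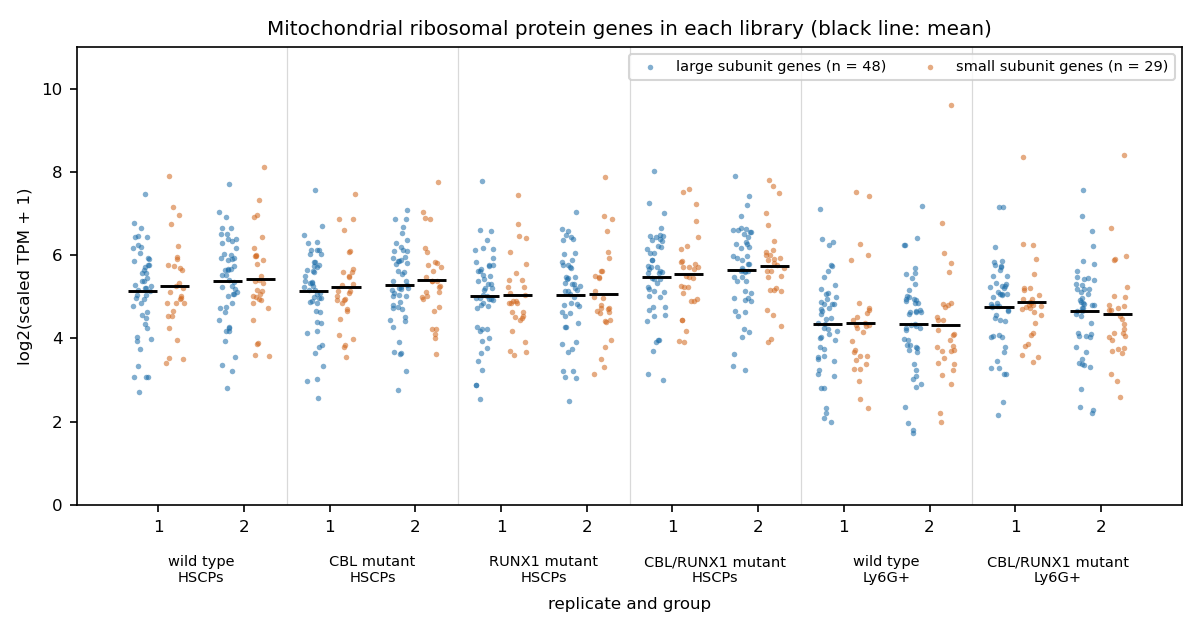
Each point is 1 member in 1 library, as log2(scaled TPM + 1) on the vertical axis, in blue for the 48 large and in orange for the 29 small subunit genes, with libraries along the horizontal axis by group and replicate and a black line at the mean of each subunit. The lines of both subunits are highest in CBL/RUNX1 mutant HSCPs and lowest in wild type Ly6G+ cells.

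Between groups, the members shifted together. The mean over the members of log2(scaled TPM + 1) was 5.30 ± 0.15 in wild type HSCPs (SD, n = 2 in each group). CBL mutant HSCPs had 5.25 ± 0.11, RUNX1 mutant HSCPs 5.05 ± 0.02 and CBL/RUNX1 mutant HSCPs 5.59 ± 0.12. In Ly6G+ cells it was 4.35 ± 0.01 in wild type and 4.72 ± 0.12 in CBL/RUNX1 mutant cells. Of the 77 members, 65 had their highest group mean in CBL/RUNX1 mutant HSCPs (39 large, 26 small) and 65 had their lowest in wild type Ly6G+ cells (40 large, 25 small). The members with their lowest mean elsewhere were Mrpl48 in wild type HSCPs, Mrpl1 in RUNX1 mutant HSCPs, Mrps21 in CBL mutant HSCPs, and Mrpl10, Mrpl14, Mrpl20, Mrpl24, Mrpl34, Mrpl43, Mrps15, Mrps18c and Mrps23 in CBL/RUNX1 mutant Ly6G+ cells. As a share of the deposited TPM, which no scaling touches, all members together took 0.305% to 0.311% in wild type HSCPs, 0.357% to 0.400% with the CBL, 0.319% to 0.440% with the RUNX1 and 0.567% to 0.575% with both mutations, so on this scale the CBL and RUNX1 mutants lay above wild type, the reverse of the scaled order. The share was 0.176% to 0.212% in wild type and 0.254% to 0.443% in CBL/RUNX1 mutant Ly6G+ cells. The counts of highest and lowest group means were not taken over all genes, and this order was not particular to the members. Mean log2 levels were also highest in CBL/RUNX1 mutant HSCPs and lowest in wild type Ly6G+ cells for other lists. These were cytosolic ribosomal proteins (9.84 and 8.31), mitochondrial import factors (6.04 and 4.61) and nuclear respiratory chain genes (6.76 and 5.76).

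**Figure D2:**
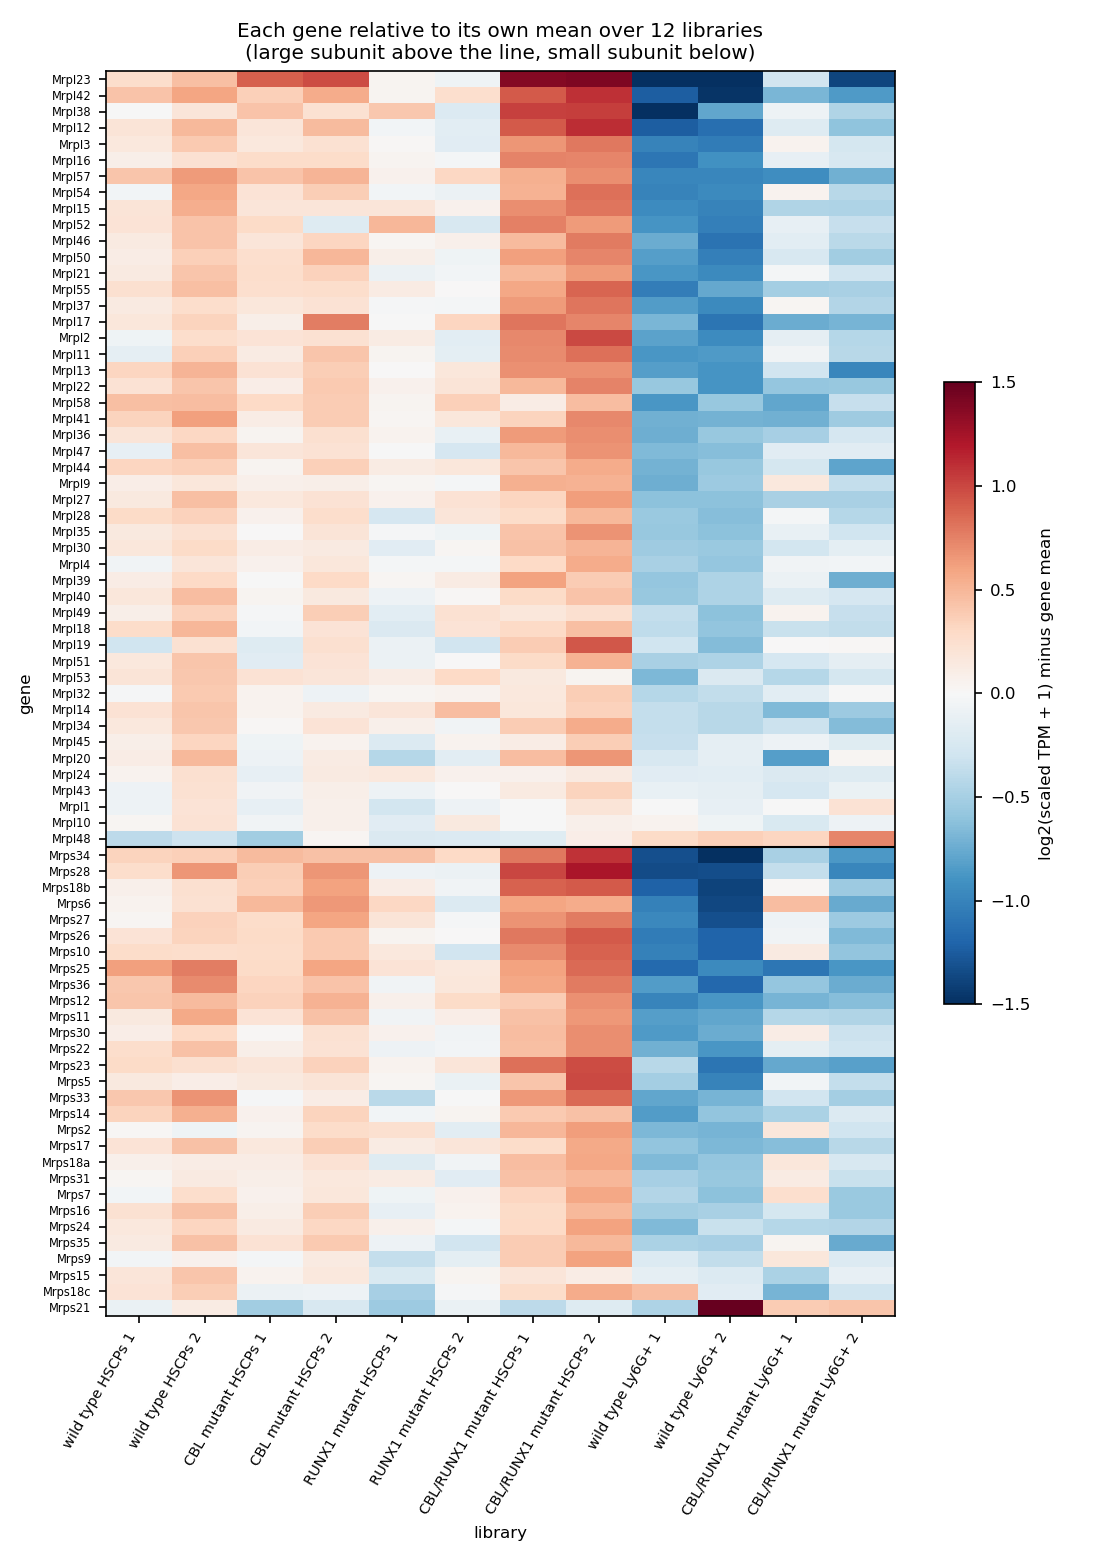
Each line is 1 member and each column 1 library, coloured by log2(scaled TPM + 1) minus the mean of that gene over the 12 libraries (red above, blue below, colours ending at 1.5 on either side), with large subunit genes above the black line and small subunit genes below it. The CBL/RUNX1 mutant HSCP columns are red and the wild type Ly6G+ columns blue for most genes of both subunits, with Mrpl48, Mrps18c and Mrps21 at the foot of their blocks going another way.

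The comparison of the wild type populations asks how the members differ between progenitor-enriched marrow and the mature neutrophil lineage. In wild type Ly6G+ cells 64 of the 77 members fell (40 large, 24 small) and 1 rose, at an adjusted p under 0.05 by limma with Benjamini-Hochberg adjustment over 13056 genes. Of all genes tested, 21.5% were called lower and 18.1% higher. Without replicate 2 of the wild type HSCPs, the lone library left being assumed to vary like the other groups, 39 members were called. On unscaled TPM the split over all genes was 1919 higher and 1277 lower in place of 2366 and 2801, and 41 members were called, all lower. The median difference of the members was -0.97 on the log2 scale, against -0.03 over all genes tested, with -0.91 for the large and -1.02 for the small subunit. In 71 members (92.2%) both Ly6G+ libraries lay below both HSCP libraries, which held for 43.6% of all genes, and only in Mrpl48 did both lie above, against 40.5% of all genes. Neutrophil markers had a median of 1.22 in this comparison, with 4 of 12 called higher, and progenitor markers one of -0.73, with 2 of 10 called lower. Markers of other cell types moved as well: T and natural killer cells had a median of 1.90 (7 of 11 called higher, 1 lower), B and plasma cells 1.70 (4 of 11 higher), mast cells and basophils 2.07 (2 of 5 higher) and monocytes and macrophages 0.47 (2 of 10 higher). No erythroid or megakaryocyte marker was called by limma (unadjusted p under 0.05 in 1 of 11 and 1 of 7). The part of these markers in the members' values was not tested.

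Mrpl42, a protein of the large subunit encoded at chr10:95480805-95501940 (GRCm38), stood at 107 and 120 scaled TPM in the wild type HSCP libraries and at 33.1 and 28.04 in the wild type Ly6G+ libraries. Its log2 difference was -1.87 ± 0.17 (SE; adjusted p = 0.00051 by limma). Mrps25, a small subunit protein, stood at 37.2 and 41.4 against 10.1 and 11.9 (-1.75 ± 0.17, adjusted p = 0.00063). In both genes the cell types were far apart relative to the spread between replicates. Mrps34, another small subunit protein, had 61.5 and 62.9 against 18.96 and 15.9 (-1.78 ± 0.18, adjusted p = 0.00067), and Mrpl57, a short protein of the large subunit, 23.9 and 28.1 against 8.48 and 8.46 (-1.51 ± 0.16, adjusted p = 0.00071). These 4 genes kept their call under every alternative listed in the closing section.

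Members with other known roles fell as well. Mrpl12, which besides its place in the large subunit binds the mitochondrial RNA polymerase, fell from 49.0 and 60.4 to 17.6 and 18.99 scaled TPM (-1.52 ± 0.19, adjusted p = 0.0011). Mrps12, whose bacterial counterpart sits at the decoding centre, fell from 52.4 and 54.7 to 19.1 and 20.9 (-1.38 ± 0.15, adjusted p = 0.00083). Mrpl11, part of the stalk base of the large subunit, fell from 7.35 and 10.7 to 4.03 and 4.10 (-0.97 ± 0.22, adjusted p = 0.0093). Mrps30, which carries a small subunit name but lies in the large subunit by structure, fell from 22.2 and 25.6 to 11 and 11.9 (-0.997 ± 0.18, adjusted p = 0.0040). The lowest difference of all was that of Mrpl23 (-2.19 ± 0.31), from 14.9 and 17.2 to 3.22 and 2.31.

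Mrpl48 (chr7:100545751-100608301) was the exception, with 85.8 and 90.4 scaled TPM in wild type HSCPs and 138 and 145 in wild type Ly6G+ cells (0.67 ± 0.22, adjusted p = 0.040). Both Ly6G+ libraries lay above both HSCP libraries. The call was lost without any 1 of the wild type libraries, of the RUNX1 mutant HSCP or of the CBL/RUNX1 mutant HSCP libraries, with an adjusted p between 0.0511 and 0.162, on unscaled TPM (0.0738) and without the filter (0.0598). An exon of Mrpl48 overlaps one of Rab6a, a gene of vesicle transport, on the opposite strand, and Rab6a stood at 68.2 and 74.98 in wild type HSCPs and at 174.5 and 176.4 in wild type Ly6G+ cells. In replicate 1 of the CBL/RUNX1 mutant Ly6G+ cells Rab6a was at 26.4 while Mrpl48 was at 141. Besides Mrpl48, 12 members were not called lower, and among them Mrps18c (141 and 158 against 170 and 109) and Mrps21 (236 and 276 against 183 and 775) had Ly6G+ libraries on both sides of the HSCP values.

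**Figure D3:**
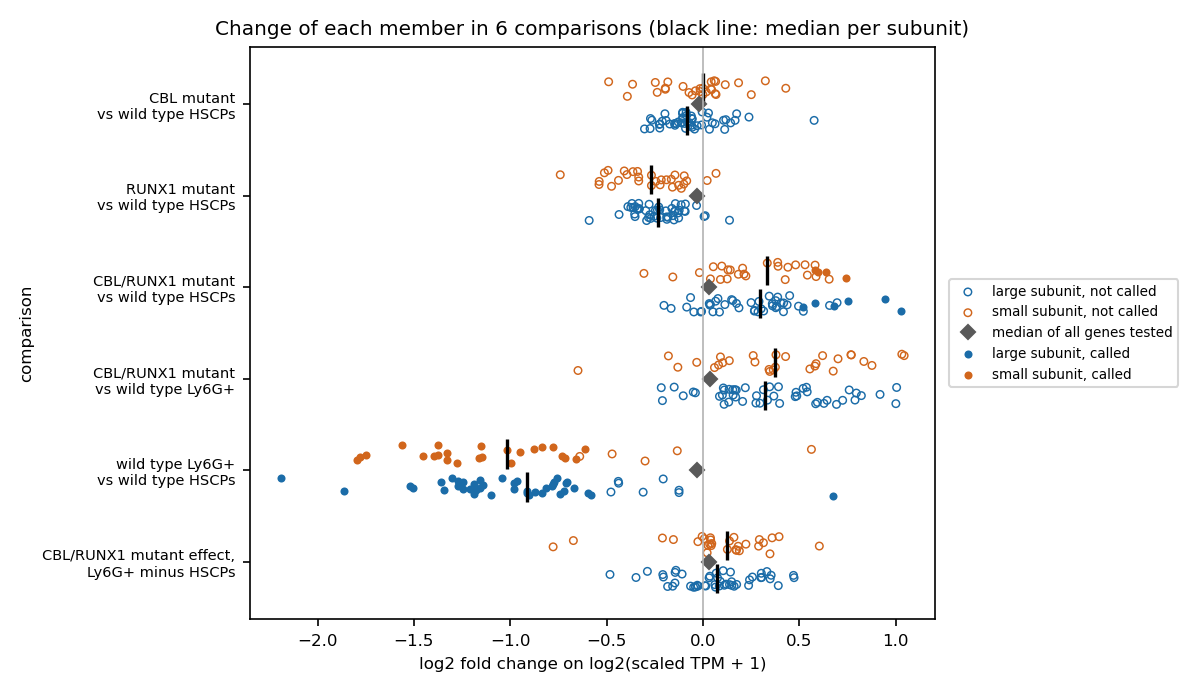
Each circle is the log2 fold change of 1 member on the horizontal axis, filled where called by limma, for the 6 comparisons along the vertical axis, in blue for large and orange for small subunit genes, with a black line at the median of each subunit and a grey diamond at the median of all genes tested. The medians of both subunits lie near each other and away from the diamond in the comparisons of wild type populations, of RUNX1 mutant and of CBL/RUNX1 mutant cells, where on unscaled TPM the RUNX1 median turns from -0.24 to 0.28 and the CBL median from -0.06 to 0.34.

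CBL/RUNX1 mutant HSCPs were compared with wild type HSCPs to see how the members differ in the progenitor fraction where both mutations are present. The 10 members that rose were Mrpl2, Mrpl12, Mrpl16, Mrpl23, Mrpl37 and Mrpl38 of the large and Mrps18b, Mrps23, Mrps26 and Mrps34 of the small subunit, and none fell (limma, adjusted over 12295 genes). Of all genes, 4.86% were called higher and 6.26% lower (597 and 770 genes). With upper-quartile scaling this split became 892 higher and 739 lower, and on unscaled TPM 3965 and 417. The median of the members was 0.30 on the log2 scale against 0.03 over all genes, with 0.30 for the large and 0.33 for the small subunit, and 29 of the 77 (37.7%) had an unadjusted p under 0.05, close to the 34.2% of all genes. In 44 members (57.1%) both mutant libraries lay above both wild type libraries, against 37.3% of all genes, and in 3 both lay below, against 34.1% of all genes. On unscaled TPM the members' median was 0.89 and that of all genes 0.56, so the members stood above the other genes in both cases.

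The number of calls rests on the spread pooled over all 8 HSCP libraries. It was 27 in a fit of the compared groups alone, 0 in a fit of all 12 libraries and 0 when any 1 of the wild type or CBL/RUNX1 mutant libraries was left out. It was 1 without either CBL mutant library and 25 without either RUNX1 mutant library. The members' median stayed between 0.18 and 0.40 under these omissions. Neutrophil markers moved with this comparison: 9 of 12 were called lower, with a median of -2.59, and Cd34 among the 10 progenitor markers was called higher (28 to 161 scaled TPM in the extreme libraries, 2.16 ± 0.52, adjusted p = 0.044). B cell and plasma cell markers moved with it too, with 4 of 10 called lower and a median of -1.78. T and natural killer cell markers had a median of -0.84 (2 of 7 called lower), erythroid markers one of -1.49 (none of 11 called, unadjusted p under 0.05 in 4) and progenitor markers one of 1.007. Of the megakaryocyte markers 1 of 7 was called (Gp1bb, -2.09 ± 0.23), and of the mast cell and basophil markers 1 of 5 (Fcer1a, -2.85 ± 0.67). Of the monocyte and macrophage markers 1 of 10 was called (F13a1, 1.94 ± 0.32). The part of these markers in the result was not tested.

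Mrps18b, a paralog of the bacterial small subunit protein S18 encoded at chr17:35910379-35916389, stood at 28.1 and 31.5 scaled TPM in wild type and at 49.8 and 51.0 in CBL/RUNX1 mutant HSCPs (0.74 ± 0.14, adjusted p = 0.028). Mrpl16, a core protein of the large subunit, stood at 30.5 and 33.6 against 48.4 and 48.3 (0.58 ± 0.11, adjusted p = 0.030). Mrps26, a small subunit protein without a bacterial counterpart, stood at 36.0 and 39.2 against 54.2 and 59.2 (0.58 ± 0.12, adjusted p = 0.032). In each of the 3 genes the groups were apart, and the CBL and RUNX1 mutant libraries lay below both CBL/RUNX1 mutant libraries. Mrpl12 rose from 49.0 and 60.4 to 82.2 and 93.6 (0.68 ± 0.16, adjusted p = 0.044).

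Mrpl23 (chr7:142532686-142540747) had the smallest p of the members, with 14.9 and 17.2 scaled TPM in wild type and 33.4 and 34.0 in CBL/RUNX1 mutant HSCPs (1.03 ± 0.12, adjusted p = 0.011). Its value is uncertain, because the annotated pseudogene Mrpl23-ps1 is listed in the table at a higher level and reads may be split between them. The pseudogene stood at 109.5 and 126 in wild type and at 183 and 189 in CBL/RUNX1 mutant HSCPs. Mrpl23 and its pseudogene together came to 124 and 143 in wild type HSCPs, 217 and 223 in CBL/RUNX1 mutant HSCPs, and 65.3 and 66.1 in wild type Ly6G+ cells, so the sum was ordered like Mrpl23 itself. Mrpl23 took 11.99% and 12.03% of the sum in the wild type HSCP libraries, 15.4% and 15.3% in the CBL/RUNX1 mutant HSCPs, and 4.93% and 3.49% in wild type Ly6G+ cells. The pseudogenes of Mrpl48 and Mrps36 that the table lists stood at or near 0.

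The other called members were close in size. Mrpl38 stood at 22.7 and 26.0 in wild type and 47.5 and 47.6 in CBL/RUNX1 mutant HSCPs (0.94 ± 0.21, adjusted p = 0.037), Mrpl2 at 46.5 and 58.7 against 80.9 and 97.0 (0.75 ± 0.17, adjusted p = 0.040) and Mrpl37 at 29.8 and 32.6 against 42.3 and 47.8 (0.52 ± 0.12, adjusted p = 0.040). Mrps23 stood at 125 and 121 against 182 and 201 (0.64 ± 0.13, adjusted p = 0.033), and Mrps34 at 61.5 and 62.9 against 85.2 and 105 (0.60 ± 0.14, adjusted p = 0.041). In all 5 the groups did not overlap. Of the abundant members, Mrps21, Mrpl52, Mrps18c and Mrps16 were not called, with log2 differences of -0.31, 0.38, 0.13 and 0.05. Of the 5 least abundant, Mrpl11 came closest to a call (0.66 ± 0.20, adjusted p = 0.073), and Mrpl1 hardly differed (0.03 ± 0.18). The promoters printed for Mrps26, Mrpl12, Mrpl2 and Mrpl37 belong to called genes, and that of Mrps12 to a gene that was not called (0.09 ± 0.15, adjusted p = 0.71 by limma). Those of the called members Mrpl23, Mrps18b, Mrpl16 and Mrps23 held none of the motifs and are not printed. Over the 8 called members with matched promoters, 4 of 10 promoters had the E-box, 3 of which are overlapping promoters of Mrpl2. The CCAAT box stood in 5 of the 10, again including those of Mrpl2. The ETS letters stood in 1, the NRF1 letters in 1 and the YY1 letters in 0.

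**Figure D4:**
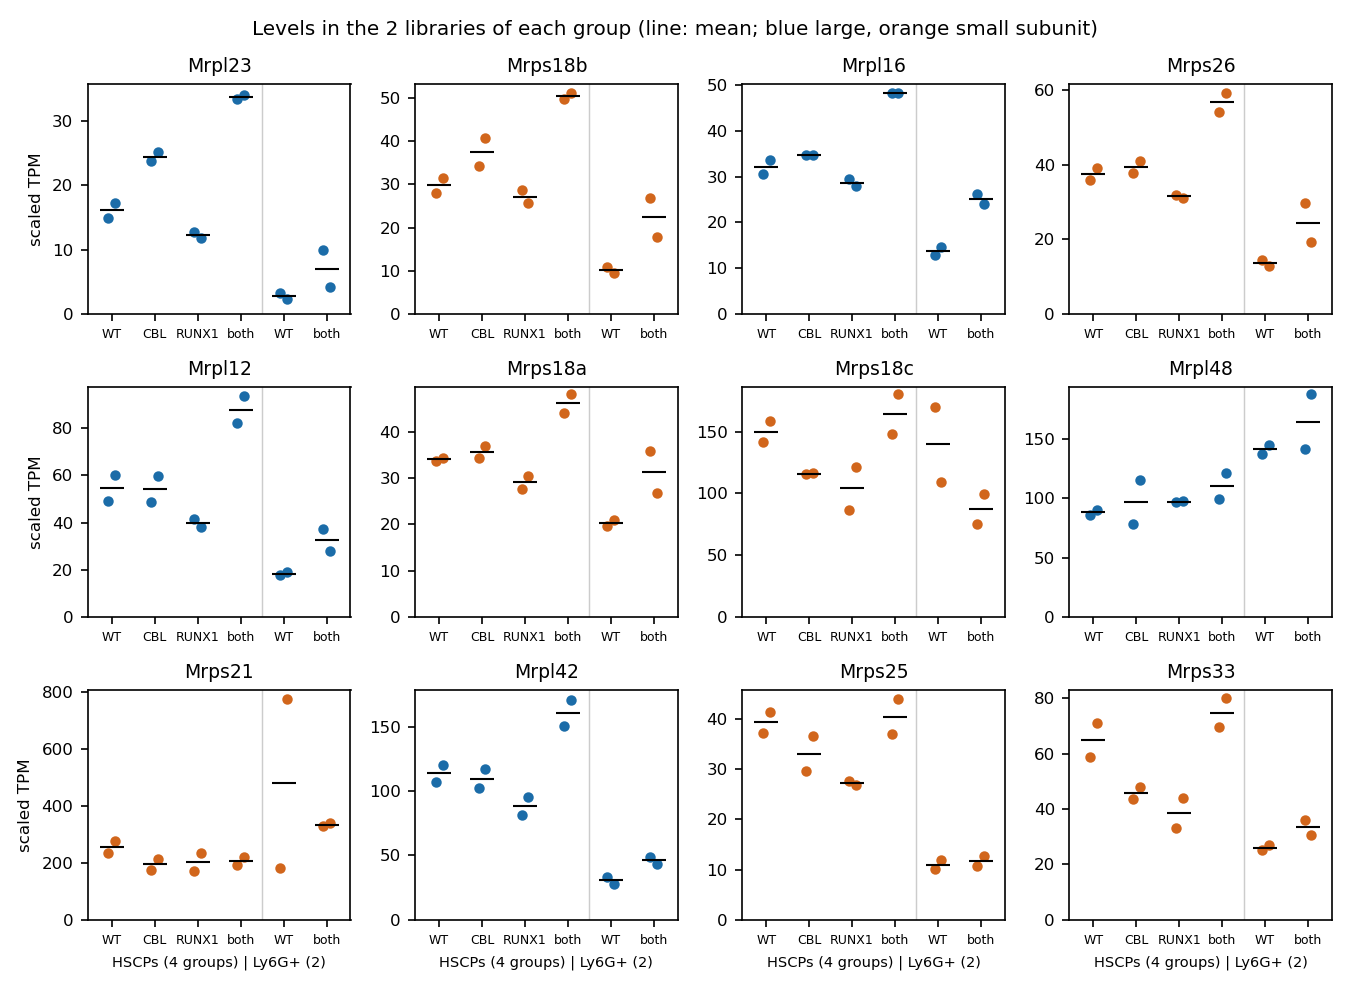
Scaled TPM of 12 members on the vertical axis (from 0, 1 panel per gene) in the 2 libraries of each group along the horizontal axis, HSCPs left and Ly6G+ cells right of the grey line, where both stands for CBL/RUNX1 mutant, with a black line at the mean. Mrpl23, Mrps18b, Mrpl16, Mrps26 and Mrpl12 are highest in CBL/RUNX1 mutant HSCPs, whereas Mrpl48 is highest in Ly6G+ cells and 1 wild type Ly6G+ library stands apart in Mrps21.

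The single mutants were each compared with wild type HSCPs to see how the members differ where 1 of the mutations is present. In CBL mutant HSCPs limma called no member, where 0.317% of all genes were called higher and 0.244% lower, and 3 members (3.9%) had an unadjusted p under 0.05, against 10.6% of all genes. The members' median was -0.06 against -0.02 over all genes, and it turned to 0.34 against 0.33 on unscaled TPM and ran from -0.17 to 0.04 when leaving out a library. Both CBL mutant libraries lay above both wild type libraries in 8 members (26% of all genes did so) and below in 16 (30.7% of all genes). Mrpl23 had the smallest p, with 23.7 and 25.2 scaled TPM against 14.9 and 17.2 in wild type (0.58 ± 0.12, adjusted p = 0.15), and was called in a fit of the compared groups alone (adjusted p = 0.035) and without either RUNX1 mutant library (0.032 in both). Mrps33, a small subunit protein, followed with 43.7 and 47.9 against 58.9 and 70.9 (-0.49 ± 0.18, adjusted p = 0.40). Among cell type markers, limma called 3 of 7 of T and natural killer cells, including Gzma (3.17 ± 0.37) and Lck (3.22 ± 0.38). It also called 1 of 10 B cell and plasma cell markers (Jchain, -5.77 ± 0.68) and 1 of 7 megakaryocyte markers (Pf4, -3.39 ± 0.35). No neutrophil, progenitor or erythroid marker was called (unadjusted p under 0.05 in 0 of 12, 3 of 10 and 5 of 11). The part of all these markers in the members' values was not tested.

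In RUNX1 mutant HSCPs limma called no member either, where 0.00813% of all genes were called higher and 0.0407% lower, and 18 members (23.4%) had an unadjusted p under 0.05, against 16.3% of all genes. The members' median was -0.24 against -0.03 over all genes, but 0.28 against 0.45 on unscaled TPM, where the sign turned while the members stayed below the other genes. By subunit it was -0.23 for the large and -0.27 for the small subunit. In 51 members (66.2%) both RUNX1 mutant libraries lay below both wild type libraries, against 26.2% of all genes, and in 1 both lay above, against 22.4%. Without replicate 1, the library low in neutrophil markers, the median was -0.25 and no member was called, and without replicate 2 it was -0.24 and 7 members were called lower, with the lone RUNX1 mutant library assumed to vary like the other groups. Progenitor markers had a median of 1.93 (10 of 10 positive, unadjusted p under 0.05 in 7), mast cell and basophil markers 1.97 (3 of 5) and megakaryocyte markers 1.53 (4 of 7). Neutrophil markers had a median of -1.24 (unadjusted p under 0.05 in 3 of 12), B cell and plasma cell markers -2.10 (8 of 10) and erythroid markers -1.24 (4 of 11). None of these markers was called, and their part in the members' values was not tested. Mrps33 stood at 33.2 and 44.1 scaled TPM against 58.9 and 70.9 in wild type (-0.74 ± 0.18, adjusted p = 0.19 by limma). Mrps25 stood at 27.7 and 26.7 against 37.2 and 41.4 (-0.51 ± 0.15, adjusted p = 0.24). In both genes the groups did not overlap on scaled TPM, although neither passed the adjustment. On unscaled TPM the groups of Mrps25 overlapped. The 3 mutant HSCP groups share their wild type libraries, so their values are given side by side and not compared as independent results.

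In CBL/RUNX1 mutant Ly6G+ cells, compared with wild type Ly6G+ cells, limma called 0% of 11941 genes higher and 0% lower, and so no member. This fit has 2 residual degrees of freedom, and 12 members (15.6%) had an unadjusted p under 0.05, close to the 13.9% of all genes (1658). The members' median was 0.35 against 0.03 over all genes (0.93 against 0.58 on unscaled TPM), with 0.32 for the large and 0.38 for the small subunit. In 49 members (63.6%) both mutant libraries lay above both wild type libraries, against 32.3% of all genes, and in 4 both lay below, against 29.9%. Mrpl3, a core protein of the large subunit, stood at 32.3 and 25.7 scaled TPM against 15.03 and 14.5 in wild type (0.92 ± 0.22, adjusted p = 0.29), and Mrpl16 at 26.2 and 24.1 against 12.9 and 14.7 (0.82 ± 0.20, adjusted p = 0.30). Without replicate 1 of the mutant, the library low in neutrophil markers, Mrpl3 and Mrpl16 were the 2 members called and the median was 0.34. Without replicate 2 the median was 0.46, and 35 members were called higher and 1 lower. Each of these omissions leaves 1 mutant library, which is assumed to vary like the 2 wild type libraries, so the calls compare that library and not the condition. The neutrophil markers had a median of -1.87 in this comparison, and 9 of the 12 lay below wild type in both libraries, and B cell and plasma cell markers had a median of -2.61, mast cell and basophil markers -3.16, erythroid markers -1.91, megakaryocyte markers 1.68 and progenitor markers 1.04. None of them was called by limma. An unadjusted p under 0.05 held for 0 of 12 neutrophil, 0 of 6 megakaryocyte, 3 of 11 erythroid and 1 of 10 progenitor markers. It also held for 8 of 11 B cell and plasma cell and 2 of 5 mast cell and basophil markers. T and natural killer cell markers had one in 4 of 11, and monocyte and macrophage markers in 1 of 10. Their part in the members' values was not tested.

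Whether the CBL/RUNX1 mutant effect differs between cell types was tested by the interaction term over all 12 libraries. No member was called and none had an unadjusted p under 0.05, where 0.046% of 13056 genes were called higher, 0.0153% lower (6 and 2 genes, which became 10 and 8 with upper-quartile scaling) and 1274 had an unadjusted p under 0.05. The members' median was 0.08 against 0.03 over all genes, and 1 member was called without replicate 2 of the CBL/RUNX1 mutant Ly6G+ cells. Mrps23 came closest in p, with an interaction of -0.67 ± 0.31 (adjusted p = 0.53): it was higher in the mutant HSCPs, as given above, while in Ly6G+ cells it stood at 59.5 and 57.8 in the mutant and at 76.5 and 47.1 in wild type. Mrpl21, a large subunit protein, had 0.47 ± 0.22 (adjusted p = 0.53), from 40.5 and 49.8 to 52.2 and 57.9 in HSCPs and from 19.7 and 18.6 to 36.2 and 30.1 in Ly6G+ cells.

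The members with the highest and lowest levels in wild type HSCPs did not all follow the median. Mrpl52 fell in Ly6G+ cells, from 177 and 208 to 83.0 and 74.9 scaled TPM (-1.27 ± 0.27, adjusted p = 0.0071 by limma), and Mrps16 from 107 and 125 to 63.4 and 65.2 (-0.83 ± 0.18, adjusted p = 0.0078). Mrpl35 fell from 5.59 and 5.96 to 2.996 and 2.88 (-0.78 ± 0.18, adjusted p = 0.010). The groups did not overlap in any of these genes. Mrpl17 fell from 7.402 and 8.35 to 3.64 and 2.49 (-1.14 ± 0.26, adjusted p = 0.0090). Mrps6 fell from 9.57 and 10.9 to 4.06 and 2.96 (-1.33 ± 0.36, adjusted p = 0.020), and its CBL/RUNX1 mutant Ly6G+ libraries stood far apart, at 13.04 and 5.05. Mrpl1 had overlapping groups, with 7.395 and 9.23 in wild type HSCPs and 7.87 and 7.14 in wild type Ly6G+ cells (-0.13 ± 0.18, adjusted p = 0.61), and stayed between 6.32 and 9.32 in all 12 libraries.

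The balance of the subunits was described by the mean TPM per large subunit gene divided by the mean TPM per small subunit gene, which no scaling between libraries changes. Among HSCPs it was 0.877 and 0.916 (wild type), 0.931 and 0.896 (CBL mutant), 1.005 and 0.908 (RUNX1 mutant), and 0.958 and 0.923 (CBL/RUNX1 mutant). These ranges overlap except for those of the CBL/RUNX1 mutant and wild type HSCPs, which lie close together. Among Ly6G+ cells it was 0.848 and 0.553 (wild type) and 0.847 and 0.896 (CBL/RUNX1 mutant). The low value of 0.553 goes with Mrps21, a short protein of the small subunit encoded at chr3:95862634-95871519, whose deposited TPM was 143 and 597 in the wild type Ly6G+ libraries, 489 and 317 in the CBL/RUNX1 mutant Ly6G+ libraries and 181 to 252 in HSCPs. Leaving Mrps21 out, which was decided after its values were seen, gave mean ratios of 1.04, 1.02, 1.10 and 1.03 in wild type, CBL, RUNX1 and CBL/RUNX1 mutant HSCPs, and of 1.11 and 1.20 in wild type and CBL/RUNX1 mutant Ly6G+ cells.

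**Figure D5:**
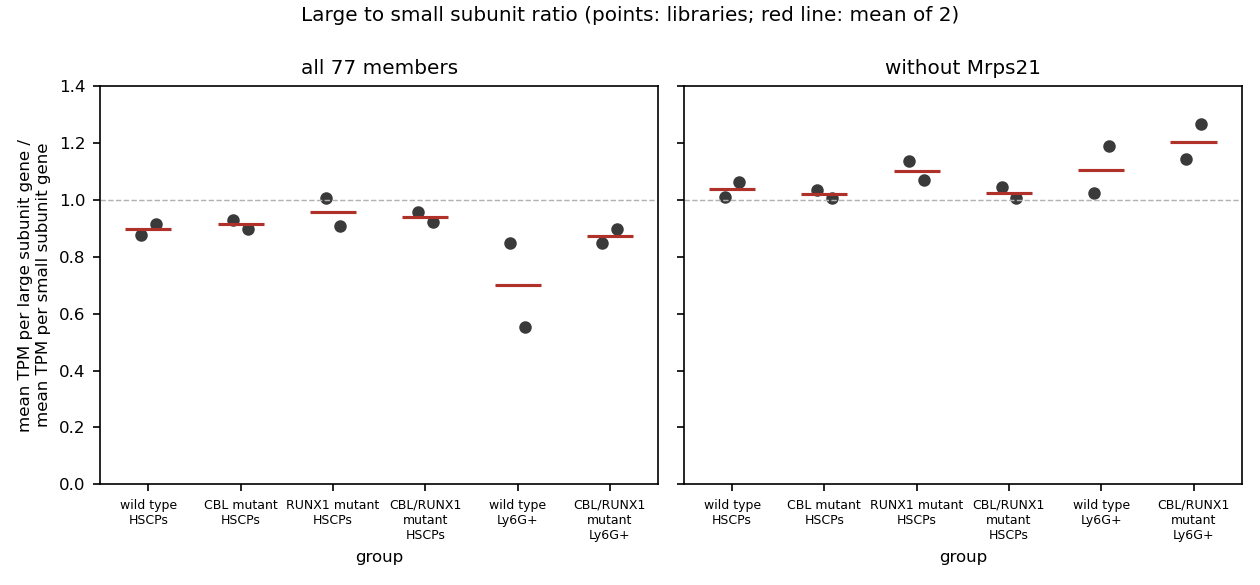
Mean TPM per large subunit gene over mean TPM per small subunit gene on the vertical axis, from 0, with 1 point per library, a red line at the mean of each group along the horizontal axis and a dashed line at 1, for all members (left) and without Mrps21 (right). The wild type Ly6G+ point at 0.553 on the left moves above 1 on the right.

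The 3 paralogs of the bacterial S18 protein had different calls. One of them, Mrps18a, lies in the large subunit by structure, and Mrps18b and Mrps18c in the small subunit. Mrps18b carries the large changes given above, falling from 28.1 and 31.5 to 10.9 and 9.56 scaled TPM between wild type HSCPs and Ly6G+ cells (-1.45 ± 0.20, adjusted p = 0.0015 by limma). Mrps18a fell from 33.7 and 34.5 to 19.8 and 20.9 (-0.72 ± 0.16, adjusted p = 0.0087) and did not pass in CBL/RUNX1 mutant HSCPs, at 44.2 and 48.2 (0.43 ± 0.12, adjusted p = 0.059). Mrps18c, the most abundant of them, passed in neither (-0.13 ± 0.26 between the wild type populations and 0.13 ± 0.19 in CBL/RUNX1 mutant HSCPs). In CBL/RUNX1 mutant Ly6G+ cells Mrps18c stood at 75.2 and 99.4, below the 170 and 109 of wild type, whereas Mrps18b stood at 26.9 and 17.9, above its wild type values. The differences between the paralogs were not tested.

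Lists of other genes of the mitochondrial translation system give the setting for these values. Between the wild type populations, 3 of the 5 mitoribosome subunits with other symbols fell in Ly6G+ cells (median -1.13), among them Chchd1 of the small subunit (-1.48 ± 0.16) and Gadd45gip1 of the large subunit (-1.17 ± 0.20). Of 23 assembly factors 9 fell and 1 rose (median -0.48). Eral1, a GTPase that binds the small ribosomal RNA, fell (-0.73 ± 0.15), and Rbfa, which acts on the small subunit, was the one that rose (0.99 ± 0.26). Of 13 translation factors 6 fell (median -0.69), among them the elongation factors Tufm (-0.95 ± 0.18) and Tsfm (-1.61 ± 0.23), and of 17 mitochondrial tRNA synthetases 11 fell (median -0.85). Of 13 genes of mitochondrial transcription and messenger RNA 5 fell, such as the ribonuclease Pnpt1 (-1.19 ± 0.15), and Polg2, the accessory subunit of the DNA polymerase, rose (1.43 ± 0.18). The templates and neighbours of the ribosome moved the same way: 7 of 13 mitochondrially encoded proteins (median -0.70), 18 of 23 import factors (median -1.12) and 64 of 88 nuclear respiratory chain genes (median -0.90) fell. Cytosolic ribosomal proteins had a median of -1.36, with 65 of 76 lower and 3 higher. Of all genes, 39.6% were called in either direction.

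In CBL/RUNX1 mutant HSCPs the same lists had fewer calls. The assembly factors Mtg1 (0.75 ± 0.18) and Mettl17 (0.70 ± 0.17), the elongation factor Gfm1 (0.59 ± 0.14), the isoleucyl-tRNA synthetase Iars2 (0.78 ± 0.13) and Lrpprc, which stabilises mitochondrial messenger RNA (0.70 ± 0.15), rose, all with an adjusted p between 0.022 and 0.045 by limma. The leucyl-tRNA synthetase Lars2 fell (-1.06 ± 0.26, adjusted p = 0.047). Of 23 import factors 4 rose (median 0.37), including the channel protein Tomm40 (0.90 ± 0.13), and of 75 cytosolic ribosomal proteins 8 rose (median 0.48, Rpl10a at 0.96 ± 0.20). None of the 13 mitochondrially encoded proteins was called (median 0.28, unadjusted p under 0.05 in 2, or 15.4%, against 34.2% of all genes), and 3 of 88 respiratory chain genes rose and 1 fell (median 0.23). In either direction, 4.55% of the respiratory chain genes, 17.4% of the import factors, 10.7% of the cytosolic ribosomal proteins and 13% of the members were called, against 11.1% of all genes. Medians ran from -0.03 for the regulators of nuclear mitochondrial genes to 0.48 for the cytosolic ribosomal proteins, with 0.30 for the members. In the single mutants, the mutant Ly6G+ cells and the interaction limma called no gene of any of these lists. In RUNX1 mutant HSCPs 26 of the 88 respiratory chain genes and 8 of the 23 import factors had an unadjusted p under 0.05 (29.5% and 34.8%, against 16.3% of all genes), with medians of -0.33 and -0.31. In CBL/RUNX1 mutant Ly6G+ cells 5 of the 23 import factors and none of the cytosolic ribosomal proteins had one (21.7% and 0%, against 13.9% of all genes), with medians of 0.44 and 0.81.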

How the data were processed

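Total RNA from 12 libraries was sequenced. The submitters list CASAVA 1.8, bcl2fastq and kallisto, and mm10 as the build, per the submitters' processing notes; the kallisto version and the annotation are not given in the sources used here. The deposited table holds TPM made by the authors, unscaled between libraries and without read numbers. Symbols were found for 27458 of 28987 identifiers (94.7%), and coordinates are those of GRCm38. All per-sample columns were used.

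TPM were scaled by trimmed-mean factors (trimming 0.3 of log ratios and 0.05 of levels) and tested as log2(scaled TPM + 1) with limma 3.58.1 in R 4.3.3, with trend and robust moderation, so fold changes of low genes are understated. Genes with 1 TPM or more in at least 2 libraries of a fit were kept. The 8 HSCP libraries formed 1 fit, the 4 Ly6G+ libraries another, and the wild type populations and the interaction used all 12. Called means a Benjamini-Hochberg adjusted p under 0.05 over every gene kept. The scripts were tested on simulated data. P-values measure the spread between these samples. The labels do not say whether an HSCP and a Ly6G+ library came from the same animal. The reported fits treated all libraries as independent.

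Members and lists were chosen with earlier results of these data known. Named members are the up to 4 called with the smallest p in each direction (2 where none is called), the 5 highest and 5 lowest in wild type HSCPs, Mrps18a to Mrps18c, Mrps30, Mrpl11, Mrpl12 and Mrps12. From each list up to 2 called genes per direction, or the 1 with the smallest p, were eligible. The remaining called members in CBL/RUNX1 mutant HSCPs, members with a lowest mean elsewhere, and further values of Mrpl48 and Mrps21 were named after their values were seen. Alternatives covered scaling, pseudocount, filter, the libraries fitted, moderation, the replicate block and leaving out each library.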

Additional observations from a re-analysis of the deposited data

How the results depend on the processing

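No member named for its p turned its direction where it was called, either as reported or under the alternative. Other named members were not checked in this way. Uncalled members could turn. On unscaled TPM Mrps25 stood at 37.6 and 25.4 in RUNX1 mutant and at 31.4 and 29.7 in wild type HSCPs, so its lower level was lost. The count of called members depended on the setting. It stayed within 1.5 times of the reported count in 20 of 22 settings for the wild type populations and in 5 of 19 for CBL/RUNX1 mutant HSCPs. The other 4 comparisons had 0 called as reported, and a count that stays at 0 says nothing about stability. The cause was not tested where a value moved. For CBL/RUNX1 mutant HSCPs the count of called members (10 as reported) was 16 with upper-quartile scaling, 70 unscaled, 1 without a filter, 27 with the compared groups only, 0 with all 12 libraries in 1 fit and 6 without trend and robust moderation, and 0 to 25 when leaving out a library. Leaving out a library gave 0 to 1 for CBL mutant HSCPs (1 also with the compared groups only), 0 to 7 for RUNX1 mutant HSCPs, 0 to 36 for CBL/RUNX1 mutant Ly6G+ cells (8 with all 12 libraries in 1 fit), 39 to 69 for the wild type populations (41 unscaled) and 0 to 1 for the interaction. Unscaled medians were 0.335 for CBL, 0.282 for RUNX1 and 0.893 for CBL/RUNX1 mutant HSCPs and 0.932 for mutant Ly6G+ cells. With a pseudocount of 5 the median of the wild type populations was -0.822. Leaving out a library moved the medians over -0.171 to 0.035, -0.339 to -0.162, 0.177 to 0.40, 0.335 to 0.456, -1.072 to -0.881 and -0.016 to 0.188, in the order CBL, RUNX1 and CBL/RUNX1 mutant HSCPs, mutant Ly6G+ cells, wild type populations and interaction.

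With only Mrps30 and Mrps18a moved to the large subunit by structure, the large to small ratio was 0.854 in wild type, 0.875 in CBL and 0.903 in CBL/RUNX1 mutant HSCPs. From geometric means it was 0.948 in wild type HSCPs, 1.007 in wild type and 0.988 in mutant Ly6G+ cells. Without the most abundant gene of each subunit it was 0.970 in wild type, 0.964 in CBL and 1.026 in RUNX1 mutant HSCPs, and 1.06 in wild type and 1.129 in mutant Ly6G+ cells. Without Mrps21, an alternative chosen after seeing the data, it was 1.036, 1.022, 1.103 and 1.026 in wild type, CBL, RUNX1 and CBL/RUNX1 mutant HSCPs, and 1.105 and 1.204 in wild type and mutant Ly6G+ cells.

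Counts over all genes were 69, 6, 1367, 0, 5167 and 8 in that order of comparisons. With the compared groups only they became 901, 1 and 4632 in HSCPs, 8434 for the wild type populations and 13 for the interaction, and 4382, 14, 3196 and 15 unscaled for CBL/RUNX1 and RUNX1 mutant HSCPs, the wild type populations and the interaction. CBL gave 40 with a pseudocount of 0.1, 44 with a filter of 5 TPM and 111 without trend and robust moderation, and RUNX1 gave 3 and 18 with pseudocounts of 0.1 and 5. The interaction gave 18 with upper-quartile scaling, 40 with a pseudocount of 5, 3 with the filter of 5 TPM and 23 without trend and robust moderation. With all 12 libraries in 1 fit they were 11 for RUNX1 and 231 for CBL/RUNX1 mutant HSCPs and 1044 for mutant Ly6G+ cells, and without a filter 15, 426 and 65 for RUNX1 and CBL/RUNX1 mutant HSCPs and the interaction. Leaving out a library gave 4 to 703, 1 to 3594, 22 to 4386, 1 to 7112, 2140 to 7092 and 3 to 2035. Same-numbered samples correlated in their deviations between -0.003 and 0.189 in HSCPs and by 0.213 in Ly6G+ cells. Between HSCPs and Ly6G+ cells the value was -0.017 for wild type and 0.049 for CBL/RUNX1 mutant cells. The highest value was 0.464, between RUNX1 mutant HSCPs and CBL/RUNX1 mutant Ly6G+ cells. The labels do not say whether a number marks a shared animal or day, and these correlations across genes cannot settle it. A replicate block gave 14 called members in CBL/RUNX1 mutant HSCPs, 67 in the wild type populations and 0 elsewhere, and 43, 7, 1502 and 7 called genes in the 3 HSCP comparisons and the Ly6G+ comparison.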

Other observations

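The members also differed together between replicates of a group. In wild type HSCPs 4 of the 77 members were higher in replicate 1 than in replicate 2, with a median difference of -0.21 on the log2 scale against -0.04 over all genes. In CBL/RUNX1 mutant HSCPs 9 were higher in replicate 1 (median -0.18 against -0.03) and in CBL mutant HSCPs 6 (median -0.16 against -0.03). In RUNX1 mutant HSCPs 34 were higher in replicate 1 (median -0.05), although all genes differed more there, with an SD of the differences of 0.71 against 0.30 in wild type HSCPs. The SD over all genes was 1.002 in CBL/RUNX1 mutant Ly6G+ cells, where 48 members were higher in replicate 1. On scaled TPM, 4 values differed by over 2-fold between replicates: Mrps21 (4.23-fold) and Mrpl38 (2.13-fold) in wild type Ly6G+ cells, and Mrps6 (2.58-fold) and Mrpl23 (2.42-fold) in CBL/RUNX1 mutant Ly6G+ cells.

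Among regulators of nuclear genes for mitochondrial proteins, Ppargc1b, a coactivator, rose in CBL/RUNX1 mutant HSCPs (1.45 ± 0.27 on the log2 scale, adjusted p = 0.028 by limma). In wild type Ly6G+ cells the coactivator Pprc1 (-1.78 ± 0.28, adjusted p = 0.0024) and the transcription factor Myc (-2.34 ± 0.45, adjusted p = 0.0053) fell, and the nuclear receptor Esrra rose (0.66 ± 0.18, adjusted p = 0.022). Of the 9 regulators tested, 1 was called in the first comparison (11.1%, the same as the 11.1% of all genes) and 3 in the second (33.3%, against 39.6% of all genes), so the list's share of calls was not above that of all genes.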
